A study of Mus musculus with 10 samples.

Results

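The cells described here are C2 cells, a culture grown from the left atrial appendage of adult mouse heart and taken at passage 8, set against C1 cells at passage 6 and C3 cells at passage 10. A gene belongs to the passage 8 peaks when both C2 libraries lie above all 4 libraries of C1 and C3, and to the dips when both lie below them. Of 17821 genes with values, 2766 are peaks and 2255 are dips, together 5021 genes. A filter on low read numbers left 14253 genes for testing, among them 2417 of the peaks (17.0%) and 2225 of the dips (15.6%). Which of them was larger depended on the scaling. Dips outnumbered peaks after quantile normalization (2490 peaks and 3141 dips) and with each chromosome's median set to 0 in each library (2231 and 2501). With only each library's median set to 0, peaks still outnumbered dips (2417 and 2225). The C values themselves chose these genes, so their C values are given as a description, and the tests across all genes show how far the members stand apart without being independent support for the choice.

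The series holds RNA-seq of 10 libraries, 2 for each of 5 cell types. All cells came from C57BL/6 mice aged 8 to 12 weeks, with no treatment or engineered allele. B cells (c-kit+/CD45+) grew out after weak digestion with 0.05% trypsin, and C1 (c-kit+/CD45-), C2 (c-kit-/CD45-) and C3 (c-kit-/CD45-) are their later passages. A cells (c-kit+/CD45-) grew out after strong digestion with 0.25% trypsin; both digestions held 0.1% collagenase D. The labels call the cells sorted. The labels do not say whether replicate libraries were drawn from different mice or different cultures, so each p-value measures only the spread between these libraries, which may be technical. In bulk RNA, a change in the share of cells that express a gene and a change per cell cannot be told apart.

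Cells that leave a tissue and divide on plastic pass through states that differ in matrix output, contractile filaments, growth-factor signalling and cell cycle. Imprinted genes are read from only 1 parental copy, and many of them set fetal growth: H19 is a long non-coding RNA transcribed beside the growth factor gene Igf2 on distal chromosome 7, Cdkn1c encodes a CDK inhibitor, and Plagl1 encodes a zinc finger factor. Fibrillar collagens build the stromal matrix, while basement membrane collagens and laminins build the sheet on which epithelial, muscle and endothelial cells rest.

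Values are log2 and centred on each gene's median over the 10 libraries, so that 0 is that gene's middle library and 1 unit is a doubling. They place a gene against itself, and levels are not compared between genes. Read depth differed: a single read was worth 1.01 and 0.668 normalized reads in the C1 libraries, 2.04 and 1.04 in those of C2, and 0.259 and 0.199 in those of C3, which makes C2 replicate 1 the shallowest of these 6 libraries. Where a gene reached the floor in some library or its values fell on whole reads, the level in normalized reads is also given, and 3 reads correspond to at most 3.02 normalized reads in C1 and 6.12 in C2; in C3 the floor of 1 normalized read stands in for that limit. The root mean square difference between 2 libraries of a type over the tested genes was 0.489 in C1, 0.520 in C2 and 0.435 in C3 on the log2 scale.

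The libraries were checked against their labels before any comparison. Kit, the gene for c-kit, stood at 35.3 and 66.4 normalized reads in C1, at 1 (the floor) and 3.11 in C2 and at the floor in both C3 libraries, as labelled. Ptprc, the gene for CD45, reached at most 1.01 normalized reads in all 6 C libraries, against 2823 and 2723 normalized reads in B. No macrophage or leukocyte marker of 19 tested was called a peak or a dip, against 4.6% and 1.48% of all tested genes. Such a call needs C2 to differ from C1 and C3, so it is no check of leukocyte RNA shared by the passages. Of the 19, 2 were non-overlapping peaks and 3 non-overlapping dips (17.0% and 15.6% of all tested genes). In a fit on the C libraries alone, 1 was called a peak. The A libraries fit their label c-kit+/CD45- less clearly and differed from each other. Kit stood at 3.36 and 72.3 normalized reads in A, and Ptprc at 6.72 and 82.1. The root mean square difference between the 2 A libraries was 1.064 on the log2 scale, against 0.516 in B. Sex-chromosome genes set the passages apart. Ddx3y, on the Y chromosome, had 1344 and 1247 normalized reads in C1, 57.2 and 86.2 in C2, and C3 was at the floor. The 4 Y-linked genes tested all fell in this order. Xist, the RNA of the inactive X, had centred log2 values of -4.82 and -5.24 in C1, -5.80 and -4.61 in C2, then -0.17 and 0.17 in C3. It was 5.21 lower in C2 than in C3, and C2 minus C1 was -0.17. A and B held both RNAs, with Xist from 1.09 to 4.92 and Ddx3y from 353.4 to 618.4 normalized reads. The 3 passages thus do not carry the same share of Y-linked RNA or of Xist. Whether they hold the same mix of male and female cells was not tested. The part of this in the results below was not tested either.

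To ask which members stood apart beyond the spread of the libraries, all 14253 genes were fitted with limma over the 10 libraries. A gene was called a transient peak or dip when C2 differed from C1 and from C3 in the same direction, each by at least 1 log2 unit with an adjusted p (Benjamini-Hochberg over all tested genes) under 0.05. By this rule 655 genes were peaks (4.6% of tested genes) and 211 were dips (1.48%). Against the mean of C1 and C3, 1515 genes were higher in C2 (10.6%) and 745 lower (5.23%). Both contrasts share the C2 libraries, so they are not independent. All 866 called genes are members, and 1762 tested peaks and 2014 tested dips did not pass. The smaller of both differences had a median of 1.85 among called peaks and -1.53 among called dips; it reached 3 log2 units in 153 peaks and 25 dips, and 5 units in 30 peaks and 3 dips. Peaks made up 75.6% of the calls, and 63.1% after quantile normalization, which gave 848 peaks and 496 dips. Without C2 replicate 1, 400 peaks were called.

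**Figure D1:**
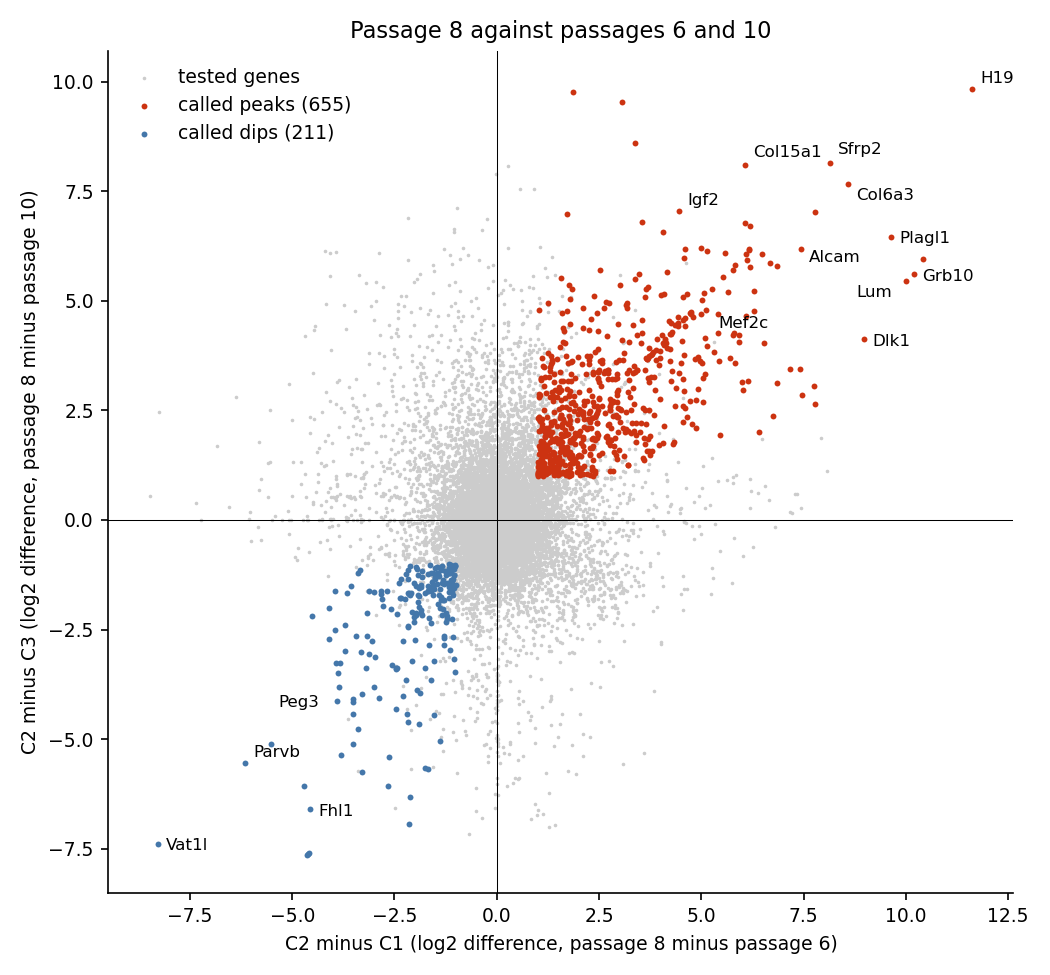
Log2 difference of C2 from C1 (horizontal axis) and from C3 (vertical axis) for each tested gene (grey), with the 655 called peaks in red and the 211 called dips in blue. Peaks fill the upper right corner, led by H19 at 11.62 and 9.83, and Vat1l at -8.28 and -7.38 is the dip farthest from both.

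At the edge of the membership rule the separation is small. Sepn1, the peak with the smallest gap, had centred log2 values of 0.24 and -0.24 in C2 against -0.24 for the nearest C3 library. 2310067B10Rik lay just outside the peaks with 0.19 and 0.01 in C2 against 0.01 in C3. For dips, C330018D20Rik lay just inside with -0.35 and -0.01 in C2 against -0.01 in C1, and Zfr just outside with -0.18 and 0.07 in C2 against 0.07 in C1.

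Imprinted genes held the farthest peak and several of the next. Of 19 tested, 6 were called peaks and 1 a dip, 31.6% and 5.26% against 4.6% and 1.48% of all genes. The median difference of the list was 0.14 from C1 and 1.71 from C3, against 0.00 for all tested genes. Against C1 the list was split, with 7 of the 19 higher and 6 lower in C2 (12.2% and 8.18% of all tested genes). Against C3, 11 were higher and 1 lower (16.2% and 11.6% of all tested genes). H19 (chromosome 7, 142575530 to 142578146, GRCm38) had centred log2 values of -3.65 and -3.25 in C1, 8.20 and 8.13 in C2, then -1.76 and -1.57 in C3. Both C2 libraries were high, and A and B lay between -0.12 and 1.36. H19 in C2 was 11.62 ± 0.22 (SE) above C1 and 9.83 ± 0.22 above C3 on the log2 scale, with a larger limma adjusted p of 2.05e-06.

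Igf2, which encodes a fetal growth factor and lies beside H19, also peaked. Its values were 2.79 and 2.26 in C1, 7.04 and 6.94 in C2, then 0.22 and -0.31 in C3. C2 stood 4.46 ± 1.27 above C1 and 7.04 ± 1.27 above C3 (larger limma adjusted p = 0.0327), with the SE taken in part from the A libraries at -4.77 and -0.22; of 10 leave-one-out fits the call held in 2, those without an A library. It was kept in a fit on the C libraries alone and lost under quantile normalization and chromosome centring. Igf2as overlaps Igf2, and with a library kit that does not mark strand their reads cannot be told apart.

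The same stretch of chromosome 7 was read gene by gene, a choice made after its values were seen. Between Tnnt3 and Nap1l4, 16 genes were tested, and 6 of them were called peaks: Tnnt3, H19, Igf2, Igf2as, Trpm5 and Cdkn1c. Called peaks made up 4.6% of all tested genes and 8.95% of those on chromosome 7. The stretch begins at a called peak, and Igf2 and Igf2as may share reads, both of which favour this count. Cdkn1c, which encodes the CDK inhibitor p57, stood at the floor of 1 normalized read in both C1 libraries. It had 241.1 and 198.0 normalized reads in C2 and 1.56 and 1.79 in C3. C2 was at least 72.6-fold higher than C1. Trpm5, an ion channel gene, lay at the floor in the other 8 libraries and at 54.8 and 57.5 normalized reads in C2. Of the genes between them none was called: Kcnq1 was at the floor in all 6 C libraries, and Kcnq1ot1, the imprinted antisense RNA of that gene, was 0.37 above C1 and 0.77 above C3 without passing.

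Plagl1, on chromosome 10, encodes an imprinted zinc finger factor. It had centred log2 values of -2.26 and -2.12 in C1, 7.35 and 7.52 in C2, then 1.26 and 0.69 in C3, so C2 lay far above every other library. Grb10, an adaptor that binds insulin and IGF receptors, stood at -8.13 and -9.14 in C1, 1.55 and 1.56 in C2, then -3.70 and -4.39 in C3. For both genes the larger limma adjusted p was at most 0.000127, and C3 lay between C1 and C2.

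Dlk1, an imprinted Notch-ligand-like membrane protein gene, is known by level: its mean was 16.6 normalized reads in C1, 8420 in C2 and 489.3 in C3. Its neighbours on chromosome 12, the maternally expressed RNAs Meg3, Rian and Mirg, are given beside it. Meg3 had 0.08 and 0.49 in C1, 0.66 and 0.46 in C2, then -7.32 and -7.72 in C3, and Rian and Mirg likewise were low only in C3 among the C libraries. Rian and Mirg are non-overlapping peaks, with both C2 libraries above all 4 others, and Meg3 is not. None of these 3 was called, since the C2 minus C1 difference missed the threshold (larger adjusted p from 0.120 to 0.671 by limma).

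The dip on the imprinted list was Peg3, which encodes a zinc finger protein. Its divergent neighbour Usp29, a ubiquitin-specific protease gene that was not on the list, dipped with it. Peg3 had centred log2 values of 3 and 2.79 in C1, -1.01 and -1.03 in C2, then 2.76 and 3.47 in C3. The limma difference was -3.91 ± 0.51 from C1 and -4.13 ± 0.51 from C3, larger adjusted p = 0.00189. Usp29 was at the floor in both C2 libraries and at 13.1 and 10.0 normalized reads in C1 and 15.6 and 20.4 in C3, which is at least 1.89-fold lower than C1 and at least 2.94-fold lower than C3. The 2 gene bodies are separated by the stretch shown here because both genes start beside it, at chr7:6730463-6730558 (plus strand; RefSeq, GRCm38.p6), with its 3 CpG dinucleotides in capitals.
Peg3-Usp29: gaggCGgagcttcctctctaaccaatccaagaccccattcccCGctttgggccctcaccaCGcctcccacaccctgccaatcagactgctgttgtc

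**Figure D2:**
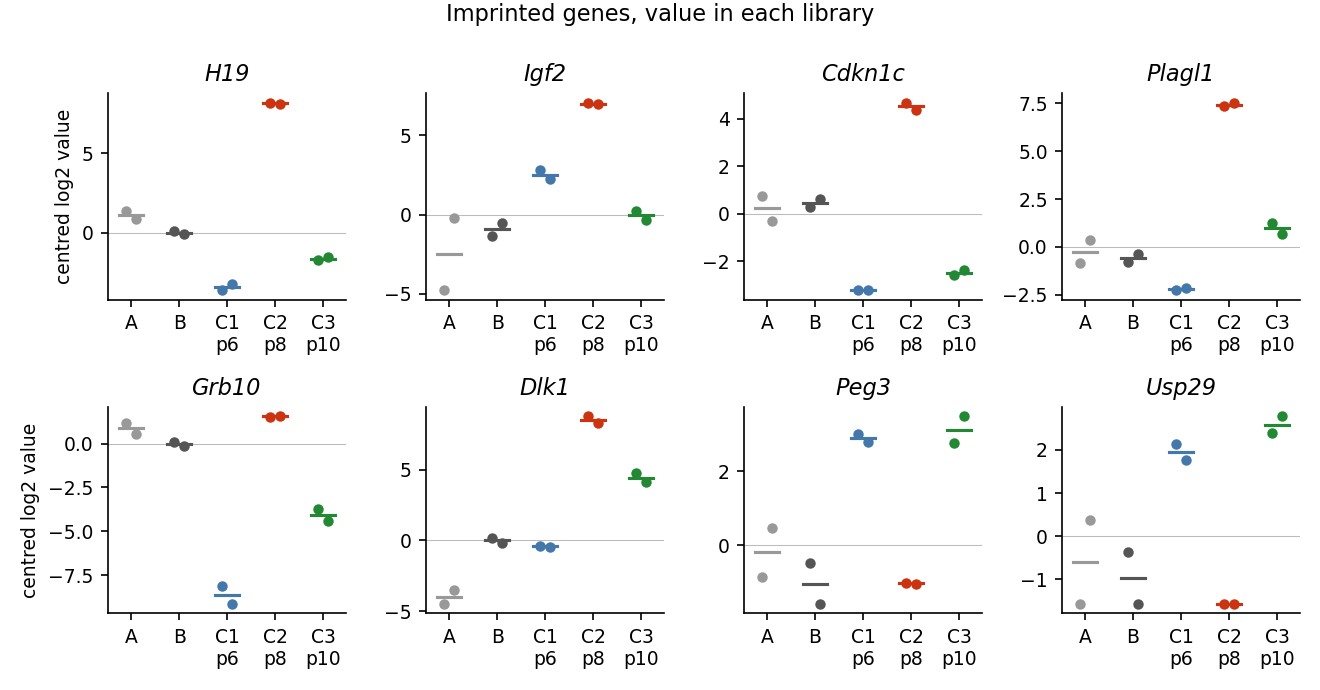
Centred log2 value of 8 genes of imprinted loci in each library, with 2 points and their mean (bar) for each cell type; p6, p8 and p10 are passages. C2 is highest for H19, Igf2, Cdkn1c, Plagl1, Grb10 and Dlk1, while Peg3 and Usp29 are low in C2 and high in C1 and C3.

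Among the lists, matrix genes held the most peaks. Of 30 fibrillar collagens and matrix genes tested, 11 were called peaks and none a dip (36.7% and 0% against 4.6% and 1.48%), and 21 were non-overlapping peaks; without C2 replicate 1 the count was 7. Over all tested genes, 17.0% were non-overlapping peaks. The list's median was 0.96 above C1 and 3.13 above C3. The called genes were Col6a3, Lum, Fmod, Fbn2, Col11a1, Col3a1, Thbs1, Col1a1, Col1a2, Col12a1 and Fn1. In the 2 separate contrasts, 11 of the 30 were higher and 5 lower in C2 than in C1 (12.2% and 8.18% of all tested genes), and 28 were higher in C2 than in C3 (16.2% of all).

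Col6a3, a chain of microfibrillar collagen VI, had centred log2 values of -9.17 and -7.17 in C1, 0.44 and 0.38 in C2, then -6.98 and -7.54 in C3. The 2 C2 libraries lay between those of A and B, and all 4 libraries of C1 and C3 were more than 7 units lower. The difference was 8.58 ± 0.58 from C1 and 7.67 ± 0.58 from C3, larger limma adjusted p = 0.000187. Lum, for the collagen-binding proteoglycan lumican, gave -6.04 and -8.62 in C1, 2.54 and 2.81 in C2, then -1.71 and -3.86 in C3, with a wider SE of 1.07. Fmod, for the related fibromodulin, lay 4.17 ± 0.48 above C1 and 5.65 ± 0.48 above C3. Fbn2, for the microfibril protein fibrillin-2, lay 4.01 ± 1.02 above C1 (larger limma adjusted p = 0.0223); it lost its call without any one of the C1 and C2 libraries and in a fit on the C libraries alone.

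Basement membrane genes rose in a like share: 8 of 22 were called peaks (36.4%) and 1, Nid1, a dip (4.55%; 2 dips without either A library), with list medians of 0.85 from C1 and 1.56 from C3. The list was split in the separate contrasts: 10 of the 22 were higher and 2 lower in C2 than in C1 (12.2% and 8.18% of all tested genes). Against C3, 11 were higher and 6 lower (16.2% and 11.6% of all tested genes). The peaks were Col15a1, Lama2, Col18a1, Col4a1, Col4a2, Col4a5, Col4a6 and Nid2. Col15a1, a collagen beside basement membranes, had -5.86 and -6.26 in C1, 0.04 and -0.04 in C2, then -7.54 and -8.64 in C3. C2 stood far above C1 and C3 and far below A, whose libraries were at 5.69 and 5.39. Lama2, the laminin alpha chain of muscle, rose by 4.22 ± 0.36 over C1 and 4.53 ± 0.36 over C3, again below A and B. Collagen IV, the network-forming collagen of the basement membrane, was represented by 2 divergent gene pairs. Col4a1 had -0.52 and -0.37 in C1, 1.80 and 1.44 in C2, then -0.77 and -0.94 in C3, and its partner Col4a2 on chromosome 8 had -0.18 and -0.34, 1.53 and 1.11, and -0.89 and -1.16. Col4a5 and Col4a6 on the X chromosome, 1275 bases apart, were called with smaller differences of 1.15 and 1.74.

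Of 30 matrix crosslinking and proteolysis genes, 2 were called peaks and 1 a dip, 6.67% and 3.33%. Of the same 30, 10 were non-overlapping peaks, against 17.0% of all tested genes. Of the 30, 15 were higher and 3 lower in C2 than in C3 (16.2% and 11.6% of all tested genes). Against C1, 6 were higher and 7 lower (12.2% and 8.18% of all tested genes). In a fit on the C libraries alone, 4 peaks were called. Mmp2, a gelatinase gene, had -2.47 and -2.54 in C1, 1.60 and 1.39 in C2, then -2.05 and -2.67 in C3, and rose by 4.0 ± 0.34 over C1 (larger limma adjusted p = 0.000414). Adamts1, for a secreted protease, rose by 1.59 ± 0.31, and lost its call without C1 replicate 2 or C2 replicate 1. Loxl4, a lysyl oxidase gene, was the dip.

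**Figure D3:**
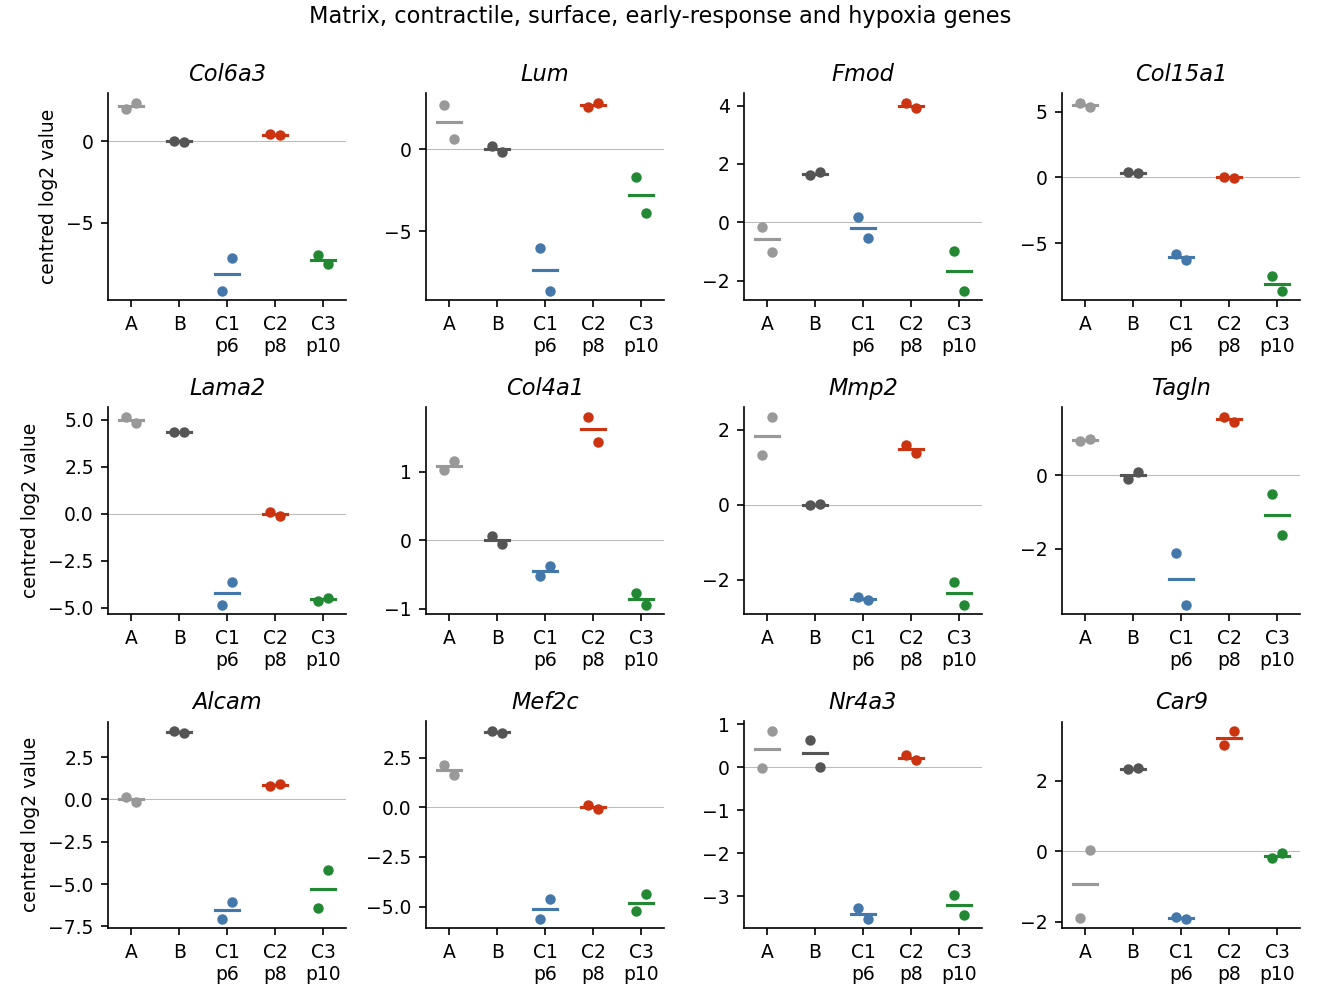
Centred log2 value of 12 called peaks in each library, with 2 points and their mean (bar) per cell type; p6, p8 and p10 are passages. In each panel both C2 libraries lie above the 4 libraries of C1 and C3, while their place against A and B differs: Col15a1 and Lama2 in C2 stay below A, and Fmod and Car9 exceed both A and B.

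Contractile genes were also among the peaks. Of 18 smooth muscle and contractile genes tested, 5 were called peaks and none a dip (27.8%), with list medians of 0.97 from C1 and 1.71 from C3; leaving out either C2 library left 3. Tagln, for the actin-binding protein transgelin, had -2.12 and -3.53 in C1, 1.59 and 1.46 in C2, then -0.51 and -1.64 in C3. Lmod1, for leiomodin, which nucleates actin filaments in smooth muscle, rose by 2.96 ± 0.20 over C1 and 2.00 ± 0.20 over C3. Des and Itga8, for desmin and an integrin chain, rest on few reads: Des had 7 reads over both C2 libraries (6.12 and 4.14 normalized reads) and the floor elsewhere in C1 and C3, and Itga8 had 8 reads. With values raised to 3 reads of the shallowest C library, neither was called. Of 22 listed sarcomere genes only 11 were tested. Of these, Tnnt3 and Tnni3, for fast skeletal troponin T and cardiac troponin I, were called peaks (18.2%). The sarcomere list's median was 0.21 from C1 and -0.3 from C3. In the separate contrasts, 2 of the 11 were higher and 1 lower in C2 than in C1 (12.2% and 8.18% of all tested genes). Against C3, 2 were higher and 2 lower (16.2% and 11.6% of all tested genes). With the filter at 50 normalized reads, 1 sarcomere peak was called. Tnni3 had -3.28 and -2.87 in C1, 2.11 and 1.56 in C2, then -1.36 and -0.95 in C3. Tnnt3 had at most 1.13 normalized reads in C1, 17.5 and 27.1 in C2, and C3 was at the floor.

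Cardiac transcription factor genes gave 3 peaks of 16 tested (18.8%) and no dip, and the median of the list was 0.56 from C1 and 0.95 from C3. Mef2c, a MADS-box factor gene of muscle and vessel, had 1.01 and 2.00 normalized reads in C1, 53 and 45.6 in C2, then 1.30 and 2.38 in C3; these C2 levels were below A (214.8 and 149.4) and B (701.7 and 641.4). Tbx2, a T-box repressor gene, rose by 4.57 ± 0.21 over C1 and 2.94 ± 0.21 over C3. Gata6, a zinc finger factor gene, rose by 1.86 ± 0.25 and 1.35 ± 0.25. Epicardial and mesothelial genes gave 3 peaks of 16 (18.8%): Krt7, Bnc1 and Cdh3, which encode a keratin, the zinc finger protein basonuclin and P-cadherin. The median of this list was 1.63 from C1 and -0.5 from C3. In the separate contrasts, 9 of the 16 were higher and 0 lower in C2 than in C1 (12.2% and 8.18% of all tested genes). Against C3, 3 were higher and 7 lower (16.2% and 11.6% of all tested genes). Krt7 stood at 6.46 and 3.42 normalized reads in C1, 157.1 and 143.5 in C2, then 2.59 and 1.59 in C3. Bnc1 and Cdh3 were already above A and B in C1, and C2 exceeded C3 by 1.65 ± 0.19 and 1.25 ± 0.30; Cdh3 lost its call without C2 replicate 1 or C3 replicate 2.

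Surface marker genes of stroma and progenitors gave 4 peaks and 1 dip among 17 tested (23.5% and 5.88%). Alcam, for the adhesion molecule CD166, had -7.05 and -6.05 in C1, 0.81 and 0.94 in C2, then -6.42 and -4.18 in C3; the C2 libraries lay between A, at 0.17 and -0.17, and B, at 4.05 and 3.93. Thy1, a stromal surface glycoprotein gene, had 1 read in C1 replicate 1 and the floor in C1 replicate 2, 20.3 and 17.6 normalized reads in C2, and 1 and 1.59 in C3; A held 6322 and 5772. Counted as reads, the C2 to C1 ratio of Thy1 was 23.1, with an exact 95% interval from 5.80 to 200.3 that covers counting error only. Mcam, for CD146, rose by 4.51 ± 0.25 over C1 and 3.57 ± 0.25 over C3. Cspg4, for NG2, rested on 5 reads in C2 against at most 2 in C1, and the exact 95% interval of its ratio reached down to 0.70. The dip was Ly6a, for Sca-1; the list had no dip without either B or either C1 library, without C2 replicate 1 or C3 replicate 1, or in a fit on the C libraries alone.

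Growth factor and receptor genes moved in both directions: 7 of 35 were called peaks and 3 dips (20% and 8.57%), and without C2 replicate 1 the counts were 3 and 1; without either B or either C1 library, or without C3 replicate 2, 4 peaks were called, and without either C1 library 1 dip. The peaks beside Igf2 were Igfbp5, Nrg1, Fgf7, Pdgfc, Igf1 and Fgfr2. Nrg1, for the ErbB ligand neuregulin, had -0.17 and -0.42 in C1, 2.70 and 2.62 in C2, then -0.44 and 0.39 in C3. Fgf7, a fibroblast-derived growth factor gene, rose by 2.78 ± 0.23 over C1 and 1.83 ± 0.23 over C3. Igfbp5, for an IGF binding protein, had 12.3 and 22.8 normalized reads in C2 and at most 1.04 in C1 and C3, and its call held in 2 of 10 leave-one-out fits. Among the dips, Ereg, for the EGF receptor ligand epiregulin, had -0.73 and -1.48 in C1, -3.93 and -2.68 in C2, then 0.60 and 1.63 in C3; it lost its call without C1 replicate 1 or C2 replicate 1. Bdnf, for a neurotrophin, was lower by about 1 unit against both (limma differences -1.05 ± 0.21 and -1.04 ± 0.21). Pdgfd, a PDGF receptor ligand gene, kept its call in 3 of 10 leave-one-out fits.

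Signalling pathway lists gave few calls. Of 24 Wnt genes, 3 were called peaks (12.5%) and none a dip; without C3 replicate 1, 5 were, and after quantile normalization 6. Sfrp2, for a secreted frizzled-related protein, had 287.6 and 279.2 normalized reads in C2, against at most 1 read in each C1 library and the floor in C3; it was at least 283.4-fold higher than C3. Wnt16, for a secreted ligand, stood at 26.2 and 15.1 normalized reads in C1, 155.1 and 150.6 in C2, then 28.3 and 15.6 in C3. Fzd1, for a Wnt receptor, rose by 1.40 ± 0.22 over C1 and 2.80 ± 0.22 over C3. Of 14 Notch genes, the target genes Hey1 and Hes1 were called (14.3%). Hey1 had 14.3 and 15.5 normalized reads in C2, 1.01 and the floor in C1, and the floor and 1.39 in C3; Hes1, a basic helix-loop-helix repressor gene, rose by 1.59 ± 0.31 and 2.13 ± 0.31. Both lost their calls in a single setting each: Hey1 when values were raised to 3 reads of the shallowest C library, and Hes1 without C2 replicate 1. Of 30 TGF-beta and BMP genes, Ltbp2 and Tgfbi were called peaks (6.67%) and Inhba a dip (3.33%); 4 peaks were called without either A library and in a fit on the C libraries alone. Ltbp2, which encodes a latent TGF-beta binding family protein, had -4.36 and -5.19 in C1, 0.82 and 0.43 in C2, then -3.38 and -3.91 in C3. Tgfbi, for a secreted matrix adhesion protein, was 4.06 ± 0.56 above C1 and 6.56 ± 0.56 above C3.

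Immediate early genes, which are transcribed within minutes of a stimulus, gave 5 peaks and no dip of 25 tested (20%): Nr4a3, Nr4a1, Nr4a2, Egr3 and Egr2. The first 3 are all the members of the NR4A family of orphan nuclear receptors. The list's median was 0.82 from C1 and 0.23 from C3, and 20 of its members were not called. Nr4a3 had -3.29 and -3.53 in C1, 0.28 and 0.16 in C2, then -2.98 and -3.45 in C3, and C2 lay within the range of A and B. Nr4a1 rose by 2.57 ± 0.37 over C1 and 3.64 ± 0.37 over C3. Egr3, a zinc finger factor gene, rose by 2.91 ± 0.19 and 2.40 ± 0.19; Egr2, its relative, had a larger limma adjusted p of 0.024 and lost its call without either C1 or either C2 library. The 250 bases before the start that RefSeq's promoter entry for Nr4a3 uses (GRCm38.p6) are shown because this gene led the list and because they hold 3 copies of TGACGT, a core of the cAMP response element, in capitals. That motif, searched on both strands, occurs in 6.47% of the 32851 promoter windows of this length, and the windows of Nr4a1 and Nr4a2 hold none. Of the 5 windows of Egr2, 3 overlap and hold the same 1 copy. The annotated span of Nr4a3 begins at 48045078, within the window, so the copies other than the first lie after that start and before the one used here.
Nr4a3, chr4:48045055-48045304, plus strand: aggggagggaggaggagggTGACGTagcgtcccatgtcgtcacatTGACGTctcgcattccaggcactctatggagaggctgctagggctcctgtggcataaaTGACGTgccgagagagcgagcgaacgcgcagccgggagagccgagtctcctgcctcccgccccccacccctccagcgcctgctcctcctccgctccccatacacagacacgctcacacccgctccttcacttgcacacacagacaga

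Glycolysis and hypoxia genes gave 4 peaks and no dip of 26 tested (15.4%), and 12 non-overlapping peaks, against 17.0% of all tested genes. Their median was 2.11 above C1 and 0.38 above C3. Of the 26, 21 were higher and 1 lower in C2 than in C1 (12.2% and 8.18% of all tested genes). Against C3, 5 were higher and 0 lower (16.2% and 11.6% of all tested genes). Car9, for a carbonic anhydrase, had -1.85 and -1.91 in C1, 3.03 and 3.42 in C2, then -0.20 and -0.03 in C3. Ankrd37, for an ankyrin repeat protein, had -3.54 and -3.77 in C1, 0.89 and 1.35 in C2, then -1.56 and -0.55 in C3. Pdk1, for the kinase that inhibits pyruvate dehydrogenase, rose by 2.99 ± 0.30 over C1 and 1.59 ± 0.30 over C3. Bnip3, for a mitophagy receptor, rose by 2.40 ± 0.30 and 1.07 ± 0.30 (larger limma adjusted p = 0.0258) and lost its call without either C2 library, without C3 replicate 1 and in a fit on the C libraries alone.

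The promoters of the 4 genes were searched for ACGTG, the core of the hypoxia response element, which shares ACGT with the motif above, on both strands of the 250 bases before each start in RefSeq's promoter entries (GRCm38.p6). It occurs in 16.6% of all 32851 windows of this length. The window of Ankrd37, like that of Nr4a3, lies mostly or wholly inside the annotated gene span. The windows of Car9, Ankrd37 and Bnip3 hold it, and the 2 windows of Pdk1 do not. The 3 windows with a match are printed because these genes are the list's peaks with the motif beside their start, with the match in capitals, where CACGT is the motif on the other strand and CACGTG is a match on both; a match is a description and not a bound site.
Car9, chr4:43506776-43507025, plus strand: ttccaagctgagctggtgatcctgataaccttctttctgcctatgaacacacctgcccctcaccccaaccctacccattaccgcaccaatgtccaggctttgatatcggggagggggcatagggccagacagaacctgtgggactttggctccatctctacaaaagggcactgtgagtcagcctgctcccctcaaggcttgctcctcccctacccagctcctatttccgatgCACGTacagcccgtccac
Ankrd37, chr8:45999851-46000100, minus strand: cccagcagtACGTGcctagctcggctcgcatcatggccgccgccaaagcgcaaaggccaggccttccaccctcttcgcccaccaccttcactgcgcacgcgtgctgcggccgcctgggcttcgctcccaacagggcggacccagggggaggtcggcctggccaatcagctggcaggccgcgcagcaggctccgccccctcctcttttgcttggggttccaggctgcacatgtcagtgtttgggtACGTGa
Bnip3, chr7:138909507-138909756, minus strand: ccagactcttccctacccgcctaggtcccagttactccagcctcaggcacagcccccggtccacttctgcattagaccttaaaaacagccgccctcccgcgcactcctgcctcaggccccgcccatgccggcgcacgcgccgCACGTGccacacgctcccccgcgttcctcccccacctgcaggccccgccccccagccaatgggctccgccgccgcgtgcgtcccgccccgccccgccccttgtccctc

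Several of the farthest peaks belong to no list. Agtr1a, for the angiotensin II type 1 receptor, stood at 92.7 and 115.9 normalized reads in C2, against 2.02 and the floor in C1 and the floor in C3; it was at least 104.3-fold higher than C3. Hif3a, for a hypoxia-inducible factor subunit, had 81.9 and 63.1 normalized reads in C2 and the floor in all 4 libraries of C1 and C3, at least 24.0-fold above C1 and 72.5-fold above C3. Mchr1, for a neuropeptide receptor, had 67.4 and 69.3 in C2 and at most 2.29 in each of the other 8 libraries. Vldlr and Pycr1, a lipoprotein receptor gene and a proline synthesis gene, were the 2 peaks among 24 amino acid and stress response genes (8.33%), with smaller differences of 1.86 ± 0.42 and 1.53 ± 0.27; Vldlr lost its call without either C2 library or without C3 replicate 1.

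**Figure D4:**
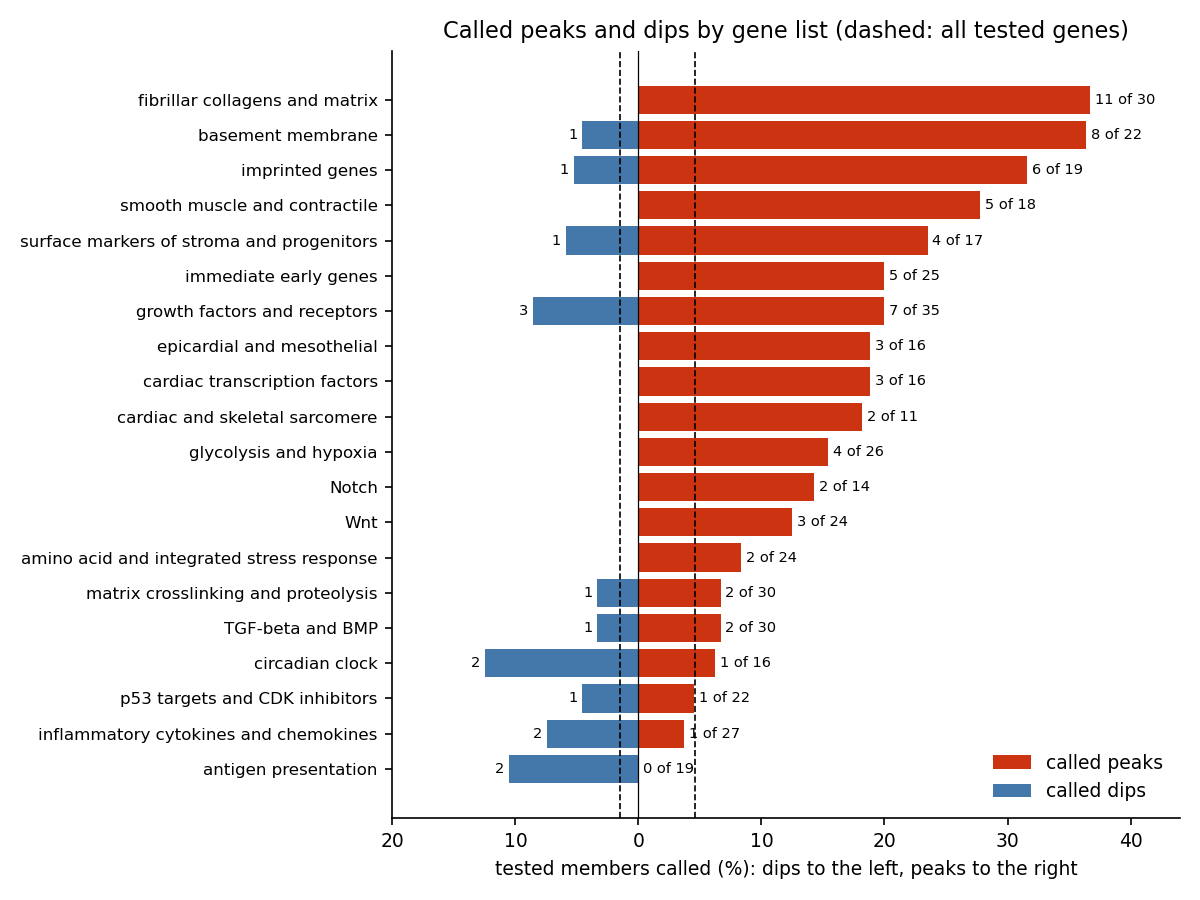
Share of the tested members of each gene list called a transient peak (red, right) or dip (blue, left), in percent, for the lists with 2 or more calls; numbers give the counts and dashed lines the share over all tested genes, 4.6% and 1.48%. The 2 matrix lists lead with 11 of 30 and 8 of 22 peaks, and antigen presentation has 2 dips and 0 peaks of 19.

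Dips were fewer and were led by genes outside the lists. Vat1l had 671.2 and 1223 normalized reads in C1, 2.04 and 4.14 in C2, then 477.1 and 494.8 in C3. C2 was low in both libraries, and A, at 1 and 1.92, was as low. The fitted differences of Vat1l were -8.28 ± 0.46 from C1 and -7.38 ± 0.46 from C3, larger limma adjusted p = 0.000102. Parvb, for a focal adhesion parvin, had 0.14 and 0.40 in C1, -5.61 and -6.17 in C2, then -0.54 and -0.14 in C3, and C2 lay below all 8 other libraries. Ablim3, for an actin-binding LIM protein, had 3.49 and 3.41 in C1, -2.07 and -2.05 in C2, then 2.93 and 3.16 in C3. Fhl1, for another LIM protein of muscle, had -2.52 and -1.53 in C1, -7.61 and -5.59 in C2, then 0.17 and -0.17 in C3.

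Rgs20, a regulator of G-protein signalling, fell to 1 read over both C2 libraries, from 23.2 and 30.7 normalized reads in C1, and C3 held 55.5 and 82.9. Its ratio of reads was 40.4 against C1, with an exact 95% interval from 7.01 to 1616 that covers counting error only. Olr1, for an oxidized-lipoprotein receptor, had 1.03 and 0.84 in C1, -3.05 and -2.68 in C2, then 2.11 and 2.85 in C3, and lost its call without either C1 library or without C2 replicate 1. Als2cl, for a guanine exchange factor-like protein, was -3.51 ± 0.44 from C1 and -4.43 ± 0.44 from C3. Plac9 was also among the farthest dips and is left uncertain, because near-identical gene copies can share its reads.

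Of 19 antigen presentation genes, 2 were called dips and none a peak (10.5% against 1.48%), and 10 were non-overlapping dips, with list medians of -0.86 from C1 and -1.16 from C3; without C3 replicate 2 or either A library, 4 were called, and after quantile normalization 6. Over all tested genes, 15.6% were non-overlapping dips. H2-D1, a class I histocompatibility gene, had -0.09 and 0.09 in C1, -2.17 and -2.39 in C2, then 0.57 and 0.40 in C3. B2m, the light chain of class I molecules, was -1.86 ± 0.18 from C1 and -1.48 ± 0.18 from C3, so that both chains of the class I complex were lower in C2. H2 genes are near copies of each other, and the split of reads among them is uncertain. Of 27 cytokine and chemokine genes, the neighbouring monocyte chemoattractant genes Ccl2 and Ccl7 were called dips (7.41%) and Il33 a peak (3.70%); no peak was called without either C2 library or C3 replicate 2, and 2 were called without either A library. Ccl2 had 0.39 and -0.84 in C1, -2.39 and -2.22 in C2, then -0.31 and -0.08 in C3, and Ccl7 had 1.52 and 0.87, -2.89 and -2.05, and -0.84 and -0.75. In the clock list, the repressor genes Nr1d1 and Nr1d2 were dips and Per1 a peak of 16 tested (12.5% and 6.25%); the Per1 call was lost after quantile normalization and without either B, either C2 or either C3 library or C1 replicate 2. Nr1d1 was -1.66 ± 0.33 from C1 and -2.23 ± 0.33 from C3, and lost its call without C1 replicate 1 or C2 replicate 2; Nr1d2 was -1.10 ± 0.17 and -1.40 ± 0.17, and lost it without C2 replicate 1.

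Some lists changed between passages with few or no transient calls. All 30 mitosis genes were higher in C2 than in C1 (background 12.2%) and 27 of 30 were lower than in C3 (background 11.6%), and none was a non-overlapping peak or dip. Of 30 DNA replication genes, 23 were higher than in C1 and 21 lower than in C3. Of 30 interferon-stimulated genes, 28 were lower in C2 than in C3, 1 lower and 2 higher than in C1, and Parp14 was called a dip; 9 were non-overlapping dips, and 2 were called without C1 replicate 1. HOX genes gave 14 of 19 higher in C2 than in C1 and none higher than in C3 by the test; 8 of the 19 were non-overlapping peaks, and after quantile normalization 3 were called. Ribosomal protein, cholesterol synthesis and respiratory chain genes gave no call in either direction, among 28, 23 and 26 tested, with 6, 5 and 0 non-overlapping peaks and 1, 1 and 7 non-overlapping dips. The counts of non-overlapping members of all these lists stand beside 17.0% peaks and 15.6% dips among all tested genes. For the separate contrasts, 12.2% of all tested genes were higher and 8.18% lower in C2 than in C1. Against C3, 16.2% were higher and 11.6% lower.

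The A and B values were not used to separate peaks from dips by the non-overlap rule, and B minus A was read for those members. Of the 2417 tested peaks, 590 (24.4%) were lower in B than in A and 264 (10.9%) higher, against 12.4% and 14.5% of all tested genes. Of the 2225 tested dips, 356 (16%) were higher in B and 128 (5.75%) lower. The limma variance behind these B minus A calls covers all 10 libraries, as it does for the calls of transient peaks and dips. Collagen IV (Col4a1 B minus A -1.09, limma adjusted p = 0.00252), Thy1 (-2.83, 0.000192) and Mcam (-1.93, 0.00121) are peaks that were lower in B, and H2-D1 (3.53, 0.000191) and B2m (1.75, 0.000579) are dips that were higher. The exceptions include Car9 and Alcam, which were higher in B by 3.27 and 3.99. In level, C2 lay above all 4 A and B libraries in 323 of the called peaks and below all of them in 64. Of the called dips, 142 lay below all 4 and 7 above. The calls chose genes by high or low C2 values, which favours these counts, and the share over all tested genes is not given. They are a description and no test of C2 against A and B. B libraries hold Ptprc at 2823 and 2723 normalized reads and A libraries at 6.72 and 82.1. The part of CD45+ cells in the B minus A difference was not tested.

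The members were not spread evenly over the chromosomes. Peaks without overlap made up 33.4% of the tested genes on chromosome 7, 28.9% on chromosome 3, 27.3% on chromosome 19 and 22.7% on chromosome 6, against 17.0% of all tested genes and 10.0% on chromosome 14. Dips ran the other way, from 3.30% on chromosome 7 and 5.20% on chromosome 3 to 23.8% on chromosome 14. Called peaks followed, with 95 of 1061 genes on chromosome 7 (8.95%) and 61 of 692 on chromosome 3 (8.82%), against 28 of 1135 on chromosome 11 (2.47%).

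Whole chromosomes moved with this pattern. The median gene on chromosome 7 was 0.72 higher in C2 than in C1 and 0.11 higher than in C3; on chromosome 3 it was 0.65 higher than C1 and -0.05 from C3. Both C1 libraries were low, at -0.56 and -0.57 on chromosome 7, -0.55 and -0.53 on chromosome 3 and -0.44 and -0.41 on chromosome 4, while the A and B medians of these 3 chromosomes lay between 0.08 and 0.29. On chromosome 4 the C2 median was also 0.48 lower than that of C3 (C2 minus C3 of -0.48). Replicates of a type lay within 0.09 of each other in the C libraries. DNA was not measured, so the part of chromosome number or any other source in these shifts was not tested. With each library centred on the median of each chromosome, an alternative added after seeing the data, 583 peaks and 212 dips were called, of which 565 and 188 were among the calls before; chromosome 7 then had 49 called peaks in place of 95. H19, Cdkn1c, Plagl1, Grb10, Dlk1, Peg3 and the matrix genes named above were called in that fit as well.

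**Figure D5:**
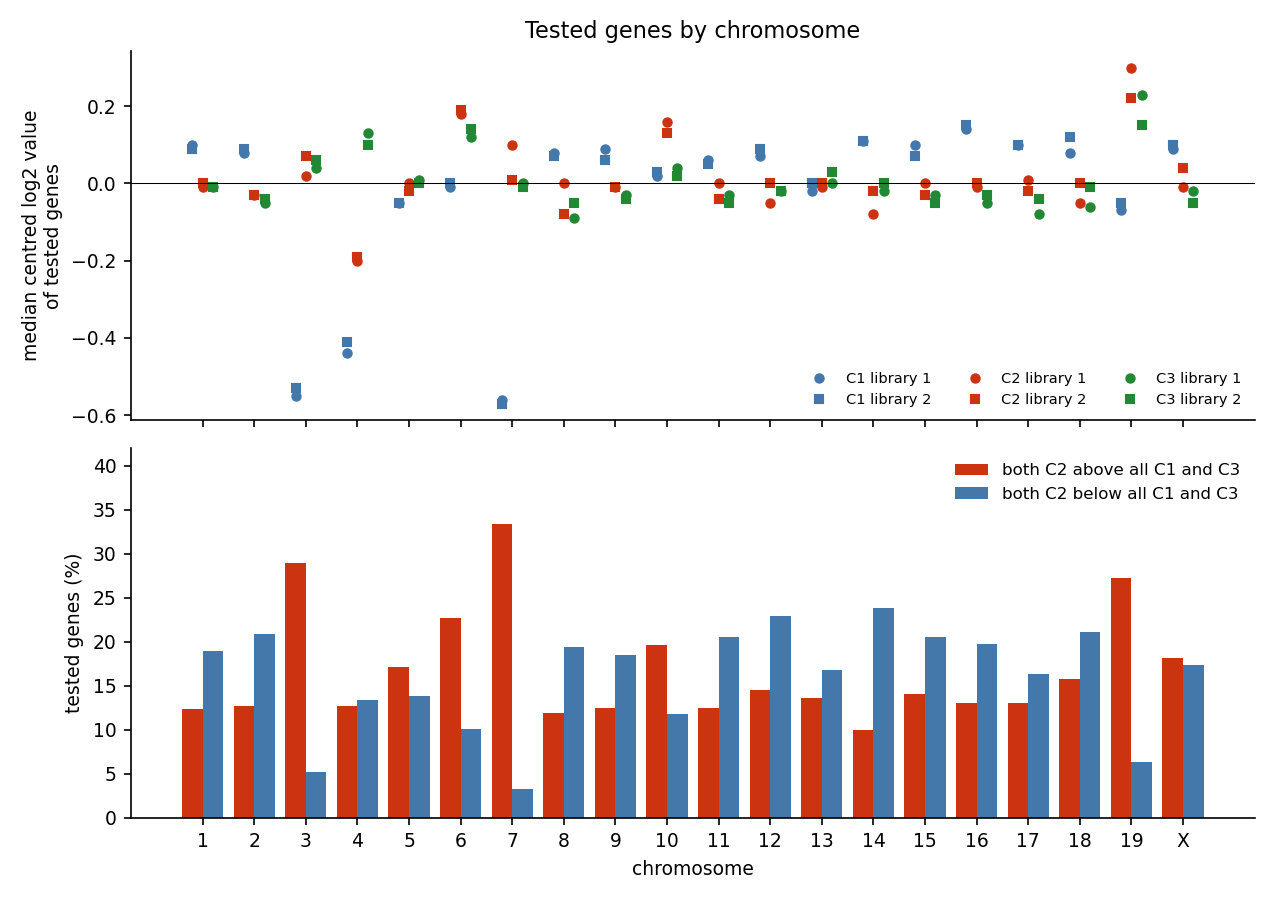
Upper panel, median centred log2 value of the tested genes of each chromosome in each C library; lower panel, percent of tested genes on that chromosome whose C2 libraries lie above (red) or below (blue) all C1 and C3 libraries. Chromosomes 3, 4 and 7 are low in both C1 libraries, and chromosomes 3 and 7 have the highest share of peaks, 28.9% and 33.4%.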

How the data were processed

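RNA-seq of 10 libraries was deposited as 1 table of 36172 genes. The deposited log2 values were made by the authors with TopHat and DESeq on mm10, per the submitters' processing notes; the sources used here give no versions. From the values, they were read as log2 of reads divided by a size factor, with values under 1 raised to 1, minus each gene's median over the libraries; that reading is not certain. Genes with a date in a cell (17) and genes at 0 in every library (18334) were left out. Where the floor was visible, at least 2 libraries had to reach 10 normalized reads; this removed 3568 genes. The level is known for 1665 of 14253 tested genes.

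All 10 libraries were fitted with limma 3.58.1 in R 4.3.3, with 1 mean per cell type, 5 residual degrees of freedom and moderated variances, without a block. Adjusted p-values are Benjamini-Hochberg over all tested genes, in this text and the report. Named genes were the 10 called peaks and 10 called dips with the largest smaller difference, up to 4 called members of each list with at least 2 calls in 1 direction, label checks and the genes at the edge of the rule. Predicted genes and near-identical copies were passed over, and some genes that the rule names are not reported here. Other names were chosen after their values were seen. The members and the 42 lists were chosen with earlier results of these data known. Intervals and floors cover counting error only. Gene positions and promoters are from RefSeq, GRCm38.p6. The script was tested on simulated data.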

Additional observations from a re-analysis of the deposited data

How the results depend on the processing

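The numbers of called peaks, called dips, non-overlapping members and genes differing from the mean of C1 and C3 stayed within 1.5 times in the other settings, apart from those given here. Quantile normalization gave 496 dips. With no minimum difference there were 681 dips and 4532 genes differing from the mean. A gap of at least 1 left 582 non-overlapping peaks and 164 dips. Leaving out each replicate in turn gave 400 to 787 peaks, 154 to 259 dips, 1393 to 2588 genes differing from the mean, 2597 to 3377 non-overlapping peaks and 2421 to 3128 non-overlapping dips; 400 and 1393 came without C2 replicate 1. The lone library left in a type is assumed to vary like the other types. A replicate block gave 642 peaks, 207 dips and 2236 genes differing from the mean. The numbers do not pair the samples, since correlations of same-numbered deviations lay between -0.0609 and 0.0892. Of 74 named genes that were called, 54 were called under each of the 20 alternatives that gave them a value, and none changed direction under them. Depth limits the few-read peaks Des, Itga8 and Cspg4, since C2 replicate 1 is the shallowest C library. Chromosome centring was chosen after seeing the data.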
